A study of Danio rerio with 4 samples.

Results

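The collagen genes are the 56 of 31952 genes in the count table whose zebrafish symbol, ignoring case, reads col, digits, a and a digit. They were grouped by the structural class of their protein into 15 fibrillar, 12 FACIT (fibril-associated), 8 beaded filament, 6 basement membrane, 5 short-chain network, 4 transmembrane, 3 anchoring fibril and 3 multiplexin genes. One further collagen symbol of the name table had no row here and was not analysed. Nuclear RNA was measured in 4 libraries at 5 dpf (days post fertilisation), 2 from NRas+ larvae and 2 from control larvae. By the paper, biotinylated nuclei were pulled down from dissected larval heads to make them. All larvae carried the transgenic line ox128, which joins mpo:BirA-Citrine to bactin:Avi-Cerulean-Rangap and in which the neutrophil promoter mpo drives the biotin ligase BirA and an Avi-tagged nuclear envelope protein is expressed broadly, so that nuclei of BirA-expressing cells become biotinylated and can be pulled down. They also carried a line that the labels name ox130, while the paper gives that allele to another driver and ox129 to kita. By the labels it joins kita:LexPR-Cerulean to PcrysB:ECFP-LexOP:mCherry-NRas and in which the drug-inducible activator LexPR is made under the kita promoter and switches on oncogenic NRas. NRas+ larvae were kept in 1 µM mifepristone, the inducer, from 24 hpf, and control larvae had the same transgenes and no mifepristone. In these libraries the effect of the drug and that of the oncogene therefore cannot be told apart. The paper also gave mifepristone to larvae without the NRas line. By qPCR it reports little or no change in selected genes, none of them a collagen. Embryos that expressed mCherry-NRas were picked for the profiling, by the paper. It states that this fusion is transcribed only with mifepristone, so that picking could apply only to the NRas+ group. How control embryos were picked is not stated. Larvae were pooled for each library. The paper speaks of biological replicates from independent experiments, in a larger number than the labels list. Elsewhere it calls replicates technical, and a supplementary caption speaks of biological duplicates. The labels do not say which experiment a library came from. The p-values therefore measure only the spread between these libraries, which may be partly technical.

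Collagens are trimeric proteins of the extracellular matrix, built from chains that wind into a triple helix. Fibrillar collagens form the rope-like fibrils of skin, bone, tendon and cartilage, FACIT collagens coat those fibrils, and type IV collagen forms the sheet-like network under epithelia and around vessels and muscle. In a larval head the main collagen producers are connective tissue fibroblasts, chondrocytes, osteoblasts and, in young larvae, the epidermis, while neutrophils are known as cells that migrate through collagen matrix and not as a source of it.

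Library depth ranged from 30619195 to 42365244 counts. Neutrophil markers, the genes of the labelled cell type, were scarce. They took 0.00369% and 0.00489% of counts in NRas+ and 0.00381% and 0.00668% in control. Only 11 of 15 listed neutrophil symbols were matched. The share leaves out mpx, which the paper names as the driver gene, with cpa5, lect2l and cxcr2. Of the 12 matched neutrophil genes 4 had too few counts for the test. Of the 8 tested, 6 lay above 0 and 2 below. For skeletal muscle 28 of 35 listed symbols were matched, and the share leaves out the rest. The 32 skeletal muscle markers took 41.8% and 42.1% of counts in NRas+, against 29.5% and 20.8% in control. In log2 fold change 28 of the 32 lay above 0. Of these edgeR called none, with 6 (18.8%) higher at an unadjusted p under 0.05, where 5.16% of all genes were. It called 2 higher once genes under 10 counts in any library were dropped, where 88 of 15239 genes were. DESeq2 called 7 higher, where 233 of 18482 genes were. The part of the muscle markers in the collagen levels was not tested. Levels are given as CPM, counts scaled to the library size and then by TMM, which corrects for genes that take up a large share of a library. The TMM factors were 0.861 and 0.941 in NRas+ and 0.878 and 1.41 in control, so control 2 stood apart from the other libraries. No gene lengths were available, so levels are compared between libraries for the same gene and not between genes. In these bulk libraries fewer cells of a type and less RNA per cell cannot be told apart.

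Most collagen genes had lower levels in the NRas+ libraries of pulled-down nuclei than in the control libraries, but no single gene passed the test. Of 55 members with enough counts, 43 (78.2%) had a log2 fold change below 0, where 52.1% of all 20099 genes tested did, and 12 lay above 0, as did 47.9% of all genes. The median log2 fold change over the members was -1.0, against -0.04 over all genes. By edgeR's quasi-likelihood test no collagen passed an adjusted p of 0.05 in either direction, where 0.129% of all genes passed as higher and 0.0398% as lower. At an unadjusted p under 0.05, 24 members (43.6%) were lower and 2 (3.64%) higher, against 6.11% and 5.16% of all genes. Both NRas+ libraries lay below both control libraries for 32 members (58.2%) and above them for 8 (14.5%), where 21.8% and 20.5% of all genes did so. DESeq2, with its own size factors, called 4 members lower at its adjusted p, where 0.79% of genes were called lower, namely COL4A2, COL4A1, COL11A1 and 1 of the col7a1l genes, and none higher.

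**Figure D1:**
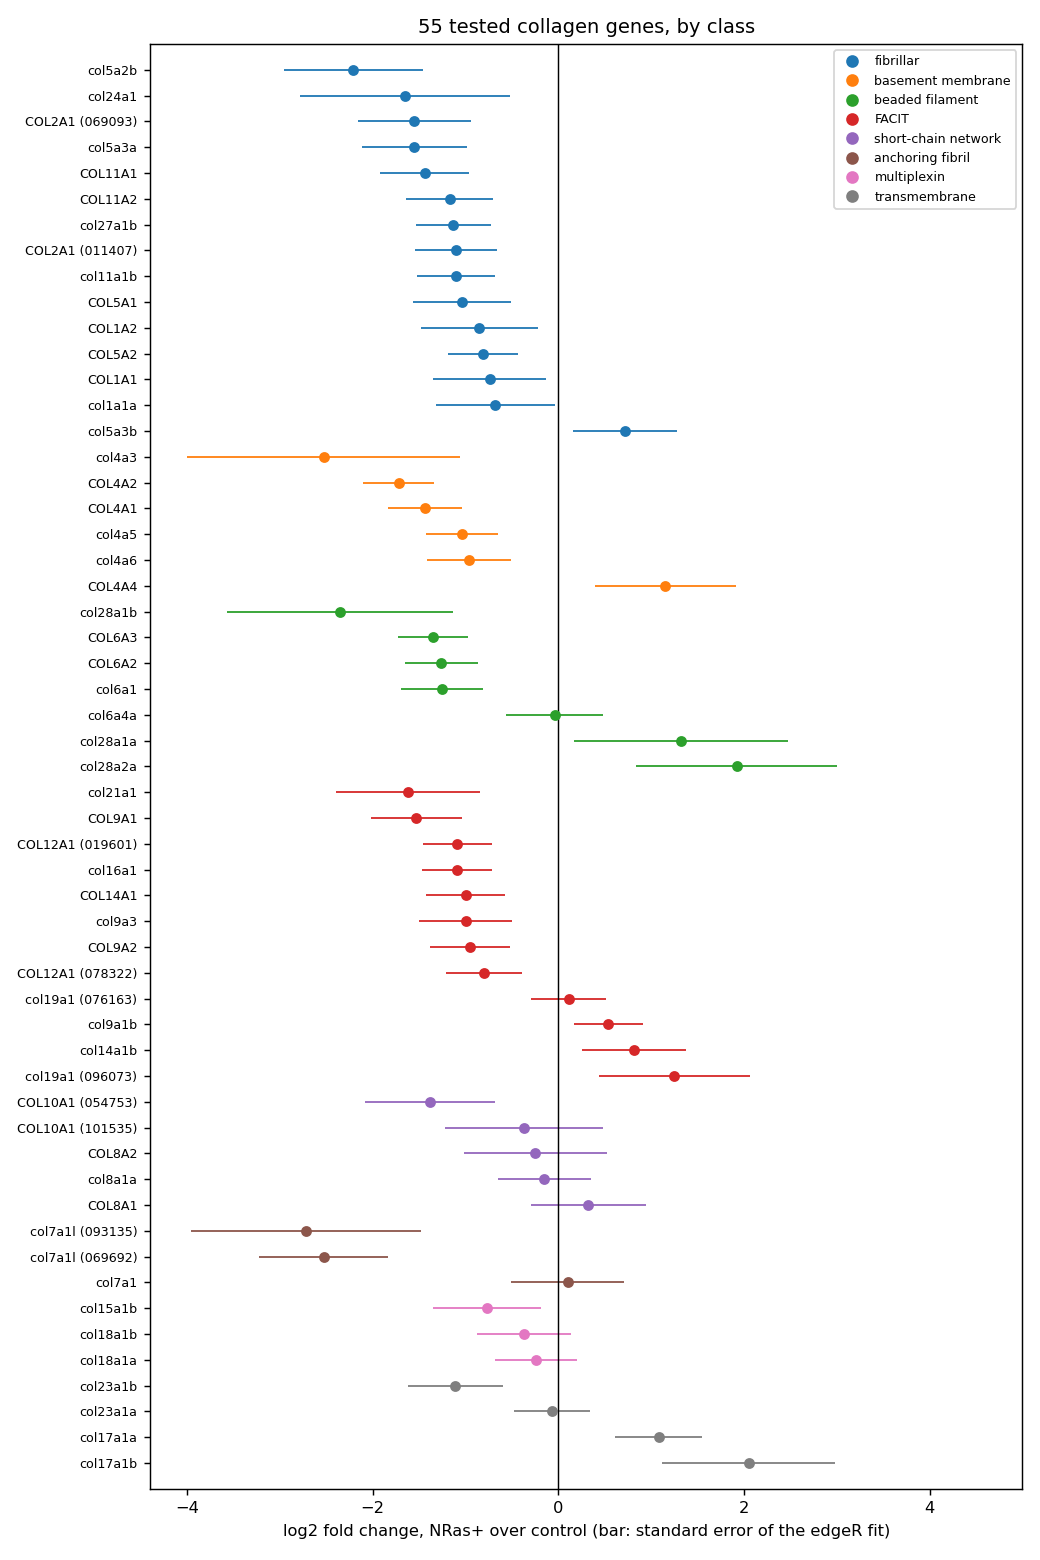
Log2 fold change of each of the 55 tested collagen genes, NRas+ over control, on the horizontal axis, with genes on the vertical axis grouped and coloured by class. Points are edgeR estimates and bars their standard errors, worked back from the F statistic of the test. Numbers in brackets end the Ensembl identifier where 2 genes share a symbol, and 43 points lie left of 0.

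The size of this difference rested in part on control 2. Collagens took 0.969% and 0.750% of all counts in NRas+ libraries, against 1.31% and 3.09% in control libraries, and the control 2 value was the highest of the 4. With the skeletal muscle markers left out of the totals the shares were 1.66% and 1.29% in NRas+ and 1.86% and 3.90% in control, and the ratio of the group means moved to 0.514, against 0.391 with them. Control 2 exceeded control 1 by a median of 0.42 log2 units over the members. Without control 2 the median over the collagens was -0.58 with 36 members below 0 and 19 above, while the median of all genes moved to 0.15. That fit sets both NRas+ libraries against a single control library, so its spread comes from the NRas+ libraries alone and control 1 is assumed to vary like them. By it COL4A1 and COL4A2 were called lower and 1 COL10A1 gene higher by edgeR's adjusted p, where 1.26% of genes were called lower and 0.422% higher. At an unadjusted p, 13 (23.6%) were then lower and 8 (14.5%) higher, against 8.81% and 6.86% of all genes. The fits without another library have the same limit, with 1 library in an arm. Without control 1 the median was -1.15 and 26 members (46.4%) were lower at an unadjusted p, where 3.87% of all genes were. Without NRas+ 1, 3 members (5.36%) were lower, against 1.79% of all genes, with a median of -0.95. Without NRas+ 2, 10 members (18.2%) were lower, against 3.94% of all genes, with a median of -0.96. Of the 43 members below 0, 34 stayed below 0 in all 4 of these fits, as did 8 of the 12 above 0 on their side.

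**Figure D2:**
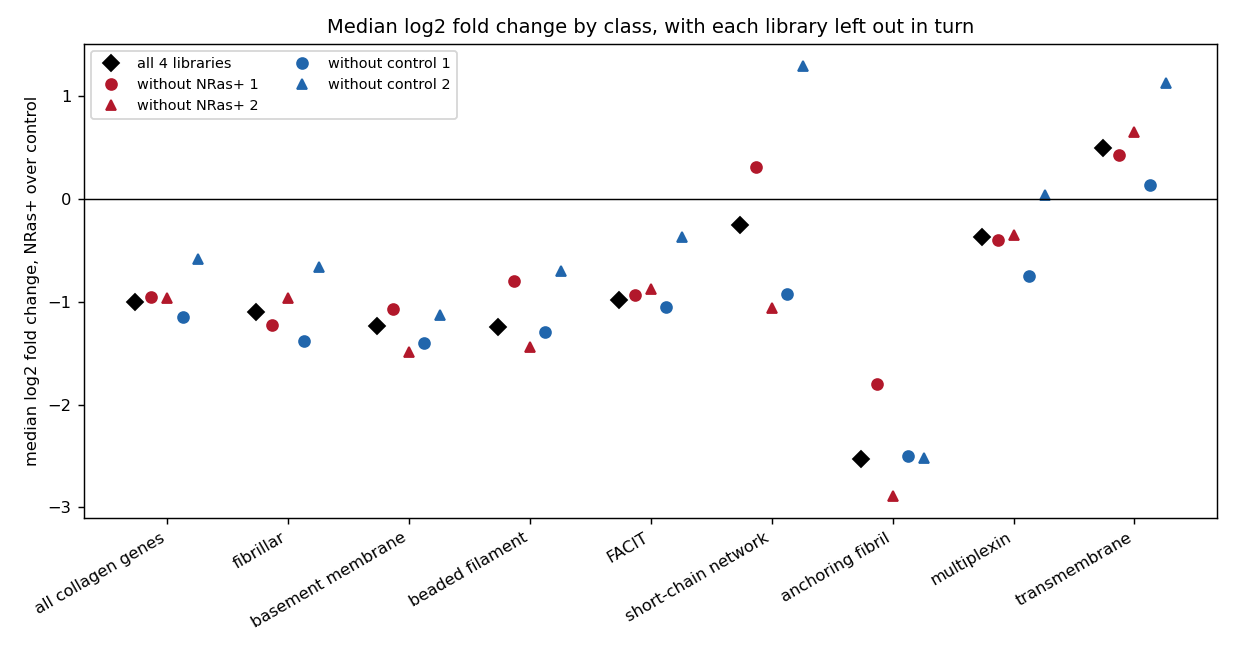
Median log2 fold change, NRas+ over control, of all collagen genes and of each class (vertical axis), from the fit with all 4 libraries and from fits without 1 library. The median over all collagen genes lies between -1.15 and -0.58, and without control 2 the short-chain network median stands at 1.3 and the multiplexin median at 0.04, against medians below 0 with all libraries.

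Fibrillar collagens, the chains of the load-bearing fibrils, were lower for 14 of 15 genes, with a median log2 fold change of -1.10. In 13 genes the NRas+ libraries lay below the controls, as in 21.8% of all genes, and 9 were lower at an unadjusted p under 0.05, as were 6.11% of all genes. None passed edgeR's adjusted p and DESeq2 called 1 lower, where 0.79% of all genes were. The class median was -1.23 without NRas+ 1 and -0.96 without NRas+ 2, fits that have 1 library in an arm. The class summed to 9696 and 6286 CPM in NRas+ and to 12558 and 18088 CPM in control. Without control 2 its median was -0.66, and without control 1 it was -1.38.

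Type I collagen, the main fibril of skin and bone, gave the 3 collagen genes of highest mean CPM over the 4 libraries. The gene col1a1a (ENSDARG00000012405), which codes for the alpha-1 chain, had 2718 and 1400 CPM in NRas+, against 3308 and 3273 CPM in control. COL1A1 (ENSDARG00000035809), a second alpha-1 gene, had 2103 and 1048 CPM in NRas+ and 2262 and 2989 CPM in control. COL1A2 (ENSDARG00000020007), the alpha-2 chain, had 2240 and 1343 CPM in NRas+, against 2764 and 3689 CPM in control. The groups did not overlap in any of the 3, but NRas+ 1 lay close to control 1 and far above NRas+ 2. Their log2 fold changes of -0.68, -0.74 and -0.85 had standard errors of 0.64, 0.61 and 0.63 and adjusted p values of 0.740, 0.698 and 0.658, so that these differences were within the spread between libraries. The 5 collagen genes of highest mean CPM, these 3 with COL2A1 (ENSDARG00000069093) and COL5A1, held 77.0% and 65.7% of the collagen counts in NRas+ and 72.4% and 68.7% in control.

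Type V collagen copolymerises with type I and sets fibril width. COL5A1 (ENSDARG00000012593) had 945 and 517 CPM in NRas+, against 1279 and 1722 CPM in control, with a log2 fold change of -1.04 ± 0.53 (SE). COL5A2 (ENSDARG00000031678) had 148 and 123 CPM in NRas+ and 216 and 259 CPM in control. Both genes were lower in both NRas+ libraries than in either control. At lower levels col5a2b (ENSDARG00000024847) had 0.521 and 3.05 CPM in NRas+, against 5.95 and 10.3 CPM in control, and col5a3a (ENSDARG00000098294) had 4.44 and 3.81 CPM in NRas+, against 16.7 and 8.16 CPM in control. The only fibrillar gene above 0 was col5a3b (ENSDARG00000101816), at 21.7 and 7.83 CPM in NRas+ and 4.43 and 12.7 CPM in control. Its groups overlapped and its log2 fold change of 0.72 became -0.15 without NRas+ 1.

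Types II and XI form the thin fibrils of cartilage. COL2A1 (ENSDARG00000069093) had 659 and 931 CPM in NRas+, against 1201 and 3438 CPM in control, a log2 fold change of -1.55 ± 0.61 (SE, edgeR adjusted p = 0.331). A second COL2A1 gene (ENSDARG00000011407) had 311 and 270 CPM in NRas+ and 480 and 762 CPM in control, with a log2 fold change of -1.10 ± 0.44. In both genes the groups were separate and control 2 was the highest library. COL11A1 (ENSDARG00000026165), whose chain starts cartilage fibrils, had 272 and 401 CPM in NRas+, against 682 and 1138 CPM in control (log2 fold change -1.44 ± 0.48, edgeR adjusted p = 0.240). COL11A2 (ENSDARG00000012422) had 103 and 118 CPM in NRas+ and 114 and 380 CPM in control. Its groups overlapped, since NRas+ 2 lay above control 1, and its log2 fold change of -1.17 was -0.03 without control 2. Without control 2 COL2A1 (ENSDARG00000069093) stood at -0.58, the other COL2A1 gene at -0.70 and COL11A1 at -1.0. The gene col11a1b (ENSDARG00000009014) had 153 and 96.7 CPM in NRas+ and 186 and 351 CPM in control, a log2 fold change of -1.10, which was -0.55 without control 2.

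Most cartilage markers were lower as well. The cartilage list summed to 862 and 867 CPM in NRas+, against 1030 and 2010 CPM in control. Of 15 tested genes 14 were below 0, where 52.1% of all genes were. The gene above 0 was MATN3 (ENSDARG00000069245), whose levels are given below with the other matrix genes. Another gene with the symbol MATN3 and another with the symbol SOX9 are in the list, and their levels are not given here. The list had a median of -0.79, which was 0.10 without control 2. At an unadjusted p under 0.05, 5 of its genes (33.3%) were lower and 1 (6.67%) higher, against 6.11% and 5.16% of all genes. SOX9 (ENSDARG00000003293), the transcription factor that drives type II collagen in chondrocytes, was the only one called by edgeR, with 35.1 and 28 CPM in NRas+ and 166 and 108 CPM in control, a log2 fold change of -2.11 ± 0.40 (edgeR adjusted p = 0.0323). Its call was lost with edgeR's older dispersion fit (adjusted p = 0.158) and with no filter on low counts (adjusted p = 0.0765), and with 1 library left out its adjusted p was 0.00550 without control 2, 0.122 without control 1, 0.654 without NRas+ 1 and 0.492 without NRas+ 2. With the replicate block no cartilage marker was called. The summed type II genes divided by the summed cartilage markers gave 1.13 and 1.38 in NRas+, against 1.63 and 2.09 in control. Fibroblast markers summed to 528 and 413 CPM in NRas+ and to 798 and 811 CPM in control. Of 12 tested genes 12 were below 0, where 52.1% of all genes were, and edgeR called none of them. Type I genes divided by the fibroblast markers gave 13.4 and 9.18 in NRas+ and 10.4 and 12.3 in control, which overlap. Of the fibroblast markers 3 were lower at an unadjusted p, and DESeq2 called none. The part of a difference in tissue content in the collagen levels was not tested.

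**Figure D3:**
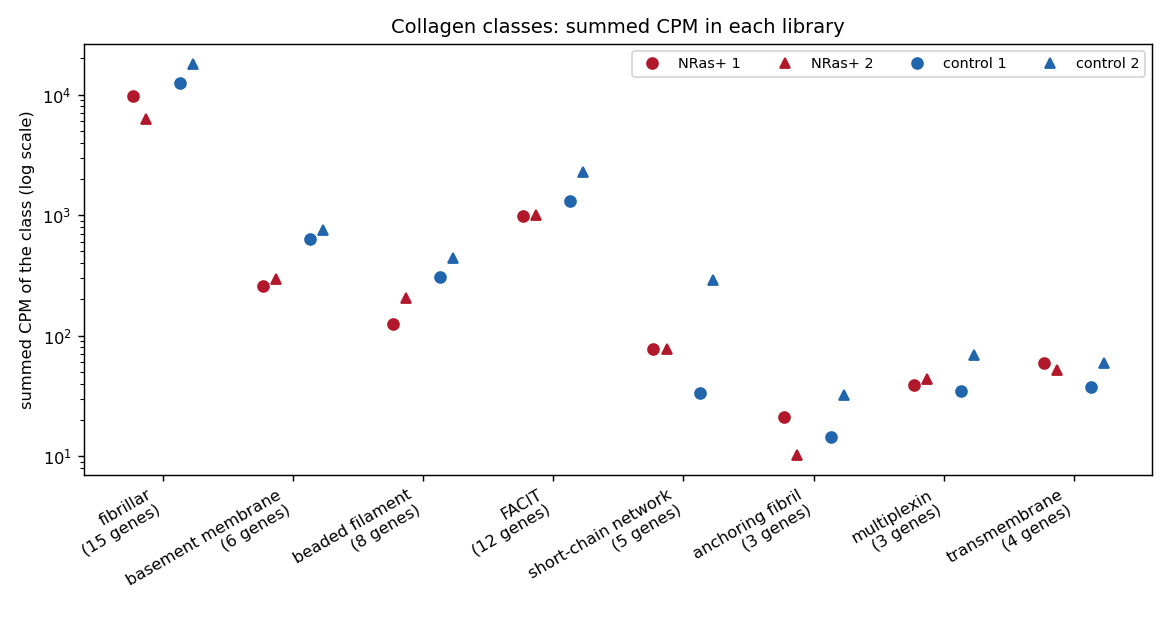
Summed CPM of each collagen class (vertical axis, log scale) in the 4 libraries, with NRas+ libraries left of control libraries in each class and the number of genes in brackets. Fibrillar sums are 9696 and 6286 in NRas+ and 12558 and 18088 in control, and control 2 alone is high for the short-chain network.

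Type IV collagen, the network of basement membranes, holds COL4A2, the member with the smallest p, and its partner COL4A1. COL4A2 (ENSDARG00000104110) had 37.5 and 29.6 CPM in NRas+, against 108 and 114 CPM in control, and was 3.30-fold lower (log2 fold change -1.72 ± 0.38, edgeR adjusted p = 0.0635). COL4A1 (ENSDARG00000055009) had 144 and 137 CPM in NRas+, against 374 and 390 CPM in control, and was 2.72-fold lower (log2 fold change -1.44 ± 0.40, edgeR adjusted p = 0.140). These are the chains of the form found in nearly all basement membranes, and both groups were tight and far apart. With each library left out in turn COL4A2 stayed between -1.89 and -1.53 and COL4A1 between -1.47 and -1.37. For COL4A2 the edgeR adjusted p was 0.862 without NRas+ 1, 0.578 without NRas+ 2, 0.122 without control 1 and 0.0297 without control 2. For COL4A1 it was 1.0, 0.648, 0.133 and 0.0406 in the same order. Each of these fits has 1 library in an arm. With all libraries DESeq2 gave adjusted p values of 0.00441 for COL4A2 and 0.0154 for COL4A1, and edgeR's older dispersion fit gave 0.181 and 0.295. COL4A2 was also called by edgeR once genes under 10 counts in any library were dropped (adjusted p = 0.0259), where 0.420% of genes were called lower. Smooth muscle cells surround themselves with basement membrane. Their markers summed to 1025 and 1960 CPM in NRas+ and to 3778 and 2435 CPM in control. Of 8 tested smooth muscle genes 7 were below 0, where 52.1% of all genes were. Other tissues with basement membrane differed in direction from one another. Above 0 lay 28 of 32 skeletal muscle markers and 12 of 15 epidermis markers, as did 47.9% of all genes. The epidermis median of 0.40 was -0.14 without NRas+ 1. Of 5 endothelial markers 4 were below 0. The part of these tissues in the type IV levels was not tested.

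Of the other type IV genes 3 had log2 fold changes below 0 and 1 above. The gene col4a5 (ENSDARG00000052063), whose chain joins networks of kidney, lung and skin basement membranes, had 41.4 and 76.2 CPM in NRas+, against 109 and 133 CPM in control. Its partner col4a6 (ENSDARG00000052061) had 26.1 and 49.8 CPM in NRas+ and 40.8 and 106 CPM in control, with overlapping groups, and its log2 fold change of -0.96 was -0.09 without control 2. The gene above 0 was COL4A4 (ENSDARG00000002831), with 7.02 and 4.26 CPM in NRas+, against 0.633 and 3.83 CPM in control (log2 fold change 1.15 ± 0.76, edgeR adjusted p = 0.614). Its partner chain col4a3 (ENSDARG00000003395) had 0.0274 and 0.394 CPM in NRas+ and 2.42 and 0.549 CPM in control. In COL4A4 the 2 NRas+ values lay above both control values, in col4a3 below them, and control 1 set most of the distance in each.

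In vertebrates the type IV genes lie in neighbouring pairs that are read in opposite directions. In the RefSeq gene order of GRCz12tu col4a1 lies next to col4a2 on chromosome 9, col4a6 next to col4a5 on chromosome 7 and col4a4 next to col4a3 on chromosome 15. COL4A1 over COL4A2 was 3.84 and 4.62 in NRas+, against 3.48 and 3.43 in control. For col4a5 over col4a6 it was 1.59 and 1.53 in NRas+ and 2.67 and 1.25 in control. The ratio of the first pair was slightly higher in both NRas+ libraries than in the controls, and the ratios of the second overlapped between groups. COL4A4 over col4a3 gave 256 and 10.8 in NRas+ and 0.262 and 6.97 in control, where col4a3 had very few counts.

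Type VI collagen forms beaded microfibrils next to basement membranes, in muscle and in skin. COL6A3 (ENSDARG00000077139) had 24.6 and 29.2 CPM in NRas+, against 77.4 and 60.0 CPM in control (log2 fold change -1.35 ± 0.38, edgeR adjusted p = 0.151). COL6A2 (ENSDARG00000061436) had 37.7 and 59.9 CPM in NRas+ and 101 and 133 CPM in control (log2 fold change -1.26 ± 0.39, edgeR adjusted p = 0.198). The gene col6a1 (ENSDARG00000074908) had 48.2 and 102 CPM in NRas+, against 123 and 233 CPM in control (log2 fold change -1.25 ± 0.44, edgeR adjusted p = 0.264). In all 3 chains of the heterotrimer the groups were separate, and without control 2 their log2 fold changes were -1.50, -1.03 and -0.70. The ratio of col6a1 to COL6A2 was 1.28 and 1.70 in NRas+ and 1.22 and 1.75 in control, and that of COL6A3 to COL6A2 was 0.652 and 0.488 in NRas+ and 0.769 and 0.450 in control. Both ratios overlapped between the groups. A further type VI chain, col6a4a (ENSDARG00000079752), had 7.05 and 10.9 CPM in NRas+, against 6.36 and 11.6 CPM in control, a log2 fold change of -0.04.

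Type XXVIII collagen resembles type VI and is known in mouse around peripheral nerves. Its genes had few counts. The gene col28a2a (ENSDARG00000076321) had 3.46 and 1.68 CPM in NRas+, against 0.0372 and 1.03 CPM in control (log2 fold change 1.92 ± 1.08, edgeR adjusted p = 0.531). The gene col28a1b (ENSDARG00000087087) had 0.165 and 0.447 CPM in NRas+ and 1.34 and 1.74 CPM in control. These genes were separate between groups in opposite directions. The gene col28a1a (ENSDARG00000077084) overlapped, and col28a2b (ENSDARG00000100781) was the 1 member with too few counts, with 0 and 5 in NRas+ and 0 and 13 in control.

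FACIT collagens sit on the surface of fibrils and link them to other matrix. Of 12 genes, 8 were lower, with a median of -0.98, 5 of them at an unadjusted p under 0.05, where 52.1% of all genes were below 0 and 6.11% were lower at that p. Neither edgeR nor DESeq2 called any of the 12. The class median was -0.93 without NRas+ 1, -0.88 without NRas+ 2, -1.05 without control 1 and -0.37 without control 2. Type IX coats type II fibrils in cartilage. COL9A1 (ENSDARG00000073699) had 49.8 and 85.2 CPM in NRas+, against 85.3 and 303 CPM in control (log2 fold change -1.53 ± 0.49, edgeR adjusted p = 0.218). NRas+ 2 lay just under control 1, and without control 2 the log2 fold change was -0.32. COL9A2 (ENSDARG00000024492) had 226 and 251 CPM in NRas+ and 326 and 598 CPM in control. The gene col9a3 (ENSDARG00000037845) had 126 and 185 CPM in NRas+, against 128 and 495 CPM in control. The groups of col9a3 overlapped and its log2 fold change of -1.0 was 0.30 without control 2.

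The second type IX alpha-1 gene went the other way. The gene col9a1b (ENSDARG00000031483) had 117 and 111 CPM in NRas+, against 74.2 and 82.5 CPM in control, with separate groups (log2 fold change 0.54 ± 0.37, edgeR adjusted p = 0.623). With each library left out its log2 fold change stayed between 0.48 and 0.64. The ratio of col9a1b to COL9A1 within a library was 2.34 and 1.3 in NRas+ and 0.870 and 0.273 in control. Both NRas+ libraries held more of col9a1b than of COL9A1 by count and both control libraries less, a comparison of counts and not of molecules per length.

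Types XII and XIV coat fibrils of tendon, skin and muscle connective tissue. COL12A1 (ENSDARG00000078322) had 253 and 176 CPM in NRas+, against 333 and 412 CPM in control. A second COL12A1 gene (ENSDARG00000019601) had 74.2 and 84.2 CPM in NRas+ and 156 and 180 CPM in control (log2 fold change -1.09 ± 0.37, edgeR adjusted p = 0.258). The groups of both were separate. Of the type XIV genes, COL14A1 (ENSDARG00000005762) had 22.3 and 20.9 CPM in NRas+, against 61.5 and 25.9 CPM in control, and col14a1b (ENSDARG00000076623) had 13.7 and 6.49 CPM in NRas+, against 6.33 and 5.22 CPM in control. The groups of these paralogs were separate in opposite directions, by a narrow margin for col14a1b. The gene col16a1 (ENSDARG00000009194), found around epithelia and in cartilage in mammals, had 66.6 and 48.3 CPM in NRas+ and 110 and 134 CPM in control, and col19a1 (ENSDARG00000096073) had 4.96 and 3.26 CPM in NRas+, against 1.86 and 1.63 CPM in control (log2 fold change 1.25 ± 0.81, edgeR adjusted p = 0.604). For col16a1 both NRas+ libraries were below the controls, for this col19a1 gene above them.

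**Figure D4:**
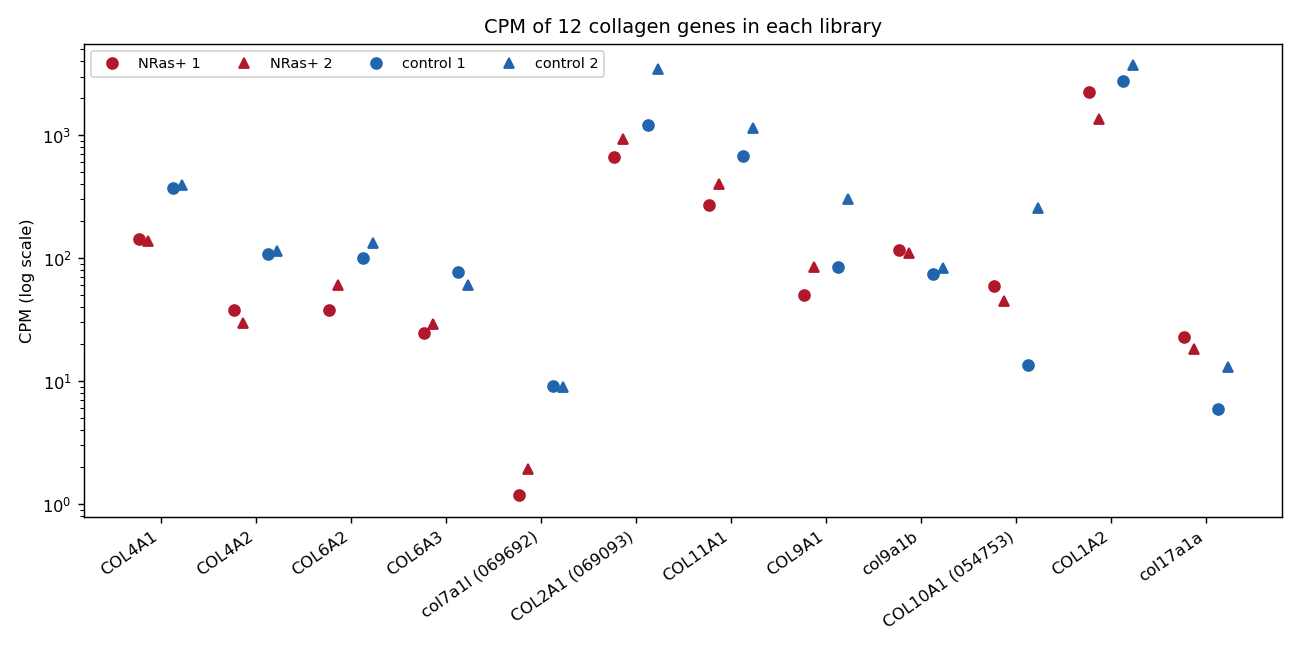
CPM (vertical axis, log scale) of 12 collagen genes in the 4 libraries, NRas+ left of control for each gene. COL4A1 and COL4A2 have close replicates and separate groups, while COL10A1 spans 13.5 to 256 CPM between the 2 control libraries.

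Type VII collagen forms the anchoring fibrils that tie the epidermal basement membrane to the dermis. The gene col7a1l (ENSDARG00000069692) had 1.18 and 1.92 CPM in NRas+, against 9.12 and 8.88 CPM in control (log2 fold change -2.53 ± 0.70, edgeR adjusted p = 0.139, DESeq2 adjusted p = 0.0138). The other col7a1l gene (ENSDARG00000093135) had 0.0274 and 0.631 CPM in NRas+ and 1.97 and 2.4 CPM in control. Both were separate between groups. The gene col7a1 (ENSDARG00000021720) had 20.1 and 7.62 CPM in NRas+, against 3.42 and 21.1 CPM in control, and its direction depended on which library was left out, from -0.71 without NRas+ 1 to 2.04 without control 2.

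The transmembrane collagens had a median of 0.50, with 2 genes above 0 and 2 below, and the median was -0.05 over the 3 genes left once those under 10 counts in any library were dropped. Of them 2 were higher at an unadjusted p, the only ones among the 55 collagens (3.64%, where 5.16% of all genes were), and neither had an unadjusted p under 0.05 without NRas+ 1 or without control 1. Type XVII is a component of hemidesmosomes, which fix basal keratinocytes to the basement membrane. The gene col17a1a (ENSDARG00000069415) had 22.8 and 18.3 CPM in NRas+, against 5.88 and 13 CPM in control (log2 fold change 1.08 ± 0.47, edgeR adjusted p = 0.391). The gene col17a1b (ENSDARG00000079011) had 7.87 and 2.52 CPM in NRas+ and 0.0372 and 1.98 CPM in control, where control 1 had 1 count (log2 fold change 2.05 ± 0.93, edgeR adjusted p = 0.413). In both genes the NRas+ libraries stood above the controls, and this direction held with each library left out. The 15 epidermis markers summed to 6522 and 2442 CPM in NRas+ and to 4310 and 1524 CPM in control, with 12 of 15 above 0 and a median of 0.40. Without NRas+ 1 the list turned, with 7 above 0, 8 below and a median of -0.14. The edgeR test called none of these markers, and DESeq2 called 1 higher, where 233 of 18482 genes were. At an unadjusted p under 0.05, 4 of the markers (26.7%) were higher, against 5.16% of all genes. Their part in the type XVII levels was not tested. Of the type XXIII genes, col23a1b (ENSDARG00000089078) had 4.63 and 7.70 CPM in NRas+, against 13.7 and 13.1 CPM in control, and was lower, while col23a1a (ENSDARG00000095339) had 24.3 and 23.2 CPM in NRas+ and 17.8 and 31.5 CPM in control, which overlap.

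Short-chain network collagens were where control 2 mattered most. Type X is the collagen of hypertrophic cartilage and, in zebrafish, also of osteoblasts. COL10A1 (ENSDARG00000054753) had 59.0 and 44.8 CPM in NRas+, against 13.5 and 256 CPM in control. The NRas+ libraries lay between the controls, and the log2 fold change of -1.38 (edgeR adjusted p = 0.479) turned to 1.96 without control 2, where control 1 alone stands for the controls (adjusted p = 0.0404), and was -2.29 without control 1 (adjusted p = 0.0731). Type VIII is found in corneal and vascular membranes. COL8A1 (ENSDARG00000003533) had 6.06 and 5.78 CPM in NRas+ and 3.72 and 5.53 CPM in control, and col8a1a (ENSDARG00000077403) had 6.72 and 19.1 CPM in NRas+, against 14.3 and 14.3 CPM in control. COL8A2 (ENSDARG00000060893) had 2.3 and 6.52 CPM in NRas+ and 1.08 and 8.46 CPM in control. Only COL8A1 was separate between the groups, by a narrow margin, with a log2 fold change of 0.32.

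Multiplexins join basement membranes to the matrix of vessels and epithelia, and type XVIII is the source of endostatin. The gene col18a1a (ENSDARG00000036558) had 25.3 and 30.8 CPM in NRas+, against 17.7 and 47.7 CPM in control. The genes col18a1b (ENSDARG00000095901), with 7.98 and 7.70 CPM in NRas+ and 12.1 and 8.44 CPM in control, and col15a1b (ENSDARG00000061848), with 5.68 and 4.99 CPM in NRas+ and 5.25 and 12.3 CPM in control, completed the class. None of the 3 was lower at an unadjusted p, and only col18a1b had separate groups. Their median log2 fold change was -0.37, which was 0.04 without control 2.

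Ratios of chains that pair in a trimer, or of collagens that mark different tissues, do not depend on the scaling of a library. The alpha-1 over alpha-2 genes of type I gave 2.15 and 1.82 in NRas+ and 2.02 and 1.70 in control, although the 2 NRas+ libraries differed widely in type I level. COL5A1 over COL5A2 gave 6.41 and 4.20 in NRas+, against 5.92 and 6.65 in control. COL9A2 over col9a3 gave 1.79 and 1.36 in NRas+ and 2.54 and 1.21 in control. All of these overlapped between groups. The type II genes over the type I genes gave 0.137 and 0.317 in NRas+, against 0.202 and 0.422 in control, with replicate 2 the higher of both groups.

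**Figure D5:**
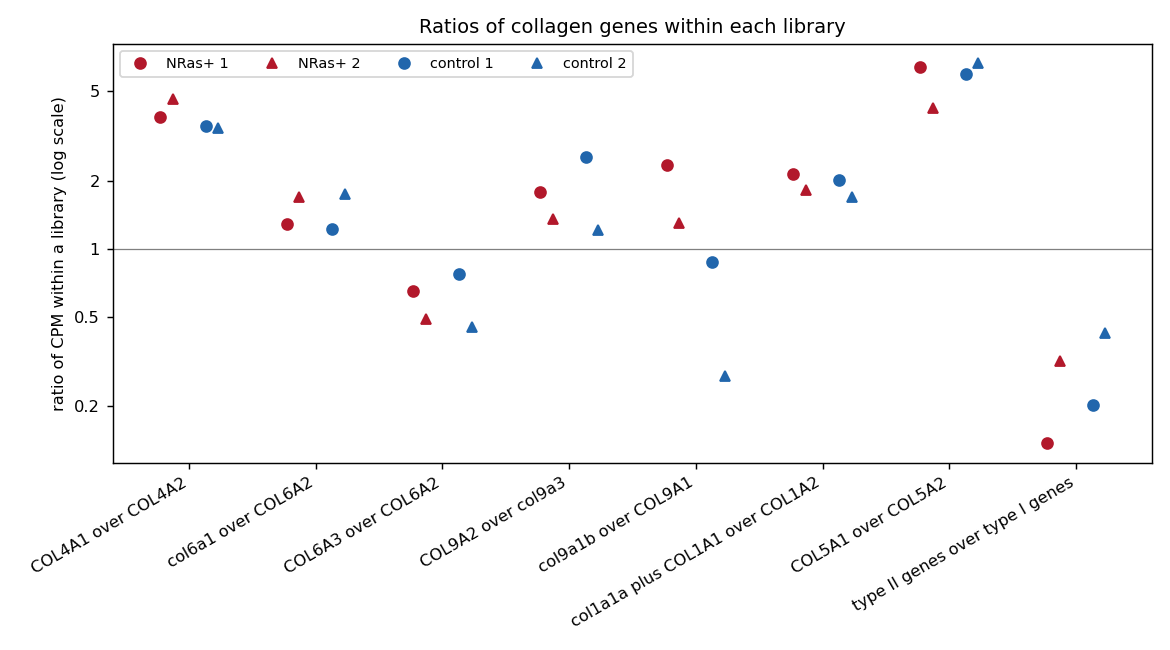
Ratio of CPM between collagen genes or gene groups within a library (vertical axis, log scale), with NRas+ libraries left of control libraries. Among the 8 ratios shown, only COL4A1 over COL4A2 and col9a1b over COL9A1 are separate between the groups.

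Collagen needs a set of enzymes and chaperones in the endoplasmic reticulum, which hydroxylate, fold and export the chains, and others outside the cell, which trim and cross-link them. Of 46 tested synthesis genes, 37 were below 0 with a median of -0.68, 11 of them at an unadjusted p under 0.05, where 52.1% of all genes were below 0 and 6.11% were lower at that p. None was called by edgeR and 1 was called lower by DESeq2, where 0.79% of all genes were. The median was -0.68 without NRas+ 1, -0.70 without NRas+ 2, -0.83 without control 1 and -0.24 without control 2. The cross-linking enzyme loxl2a (ENSDARG00000044010) had 34.4 and 31.4 CPM in NRas+, against 119 and 86.2 CPM in control (log2 fold change -1.64 ± 0.38, edgeR adjusted p = 0.0793). P4HB (ENSDARG00000105116), a subunit of prolyl hydroxylase, had 7.38 and 5.78 CPM in NRas+ and 20.1 and 18.9 CPM in control, and SERPINH1 (ENSDARG00000019949), the collagen chaperone of the endoplasmic reticulum, had 6.55 and 5.36 CPM in NRas+ and 17.8 and 16.3 CPM in control. All 3 were separate between the groups, with NRas+ lower. Another gene with the symbol SERPINH1 is in the list, and its levels are not given here. The export factor mia2 had 5.46 and 6.62 CPM in NRas+, against 0.633 and 3.62 CPM in control, and was among the 9 genes above 0.

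Collagen receptors and other matrix genes had medians below 0 as well. Of 15 tested receptor genes, 13 were below 0, with a median of -0.92, and 3 were lower at an unadjusted p, against 52.1% and 6.11% of all genes. Without control 2 the receptors were nearly even, with 8 below 0, 7 above and a median of -0.52. The median was -0.67 without NRas+ 1, -1.38 without NRas+ 2 and -1.27 without control 1. Neither edgeR nor DESeq2 called any. ITGB1 (ENSDARG00000104484), the shared beta subunit of the collagen-binding integrins, had 5.68 and 6.97 CPM in NRas+, against 18 and 16.7 CPM in control (log2 fold change -1.45, edgeR adjusted p = 0.232). ITGA1 and ITGA11, alpha subunits of such integrins, had 24.0 and 36.3 CPM and 0.987 and 1.79 CPM in NRas+, against 58.4 and 69.1 CPM and 4.69 and 5.95 CPM in control. In these 3 the groups were separate. The list also holds other genes with the symbols ITGB1 and ITGA11, whose levels are not given here. Of 49 other matrix genes, 40 were below 0, with a median of -0.58. None was called by edgeR, and 1 was called lower by DESeq2, where 0.79% of all genes were. At an unadjusted p under 0.05, 2 (4.08%) were higher and 8 (16.3%) lower, against 5.16% and 6.11% of all genes. Their median was 0.16 without control 2, with 20 below 0 and 29 above, so the direction of that list rested on 1 library. The proteoglycan acanb, an aggrecan of cartilage, had 1.29 and 2.71 CPM in NRas+ and 12.1 and 9.76 CPM in control, while MATN3 (ENSDARG00000069245), another cartilage matrix gene, had 92.8 and 103 CPM in NRas+, against 35.9 and 57.7 CPM in control.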

How the data were processed

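Per the labels' processing notes, the authors mapped reads with STAR 2.4.2a and counted them per gene with featureCounts on danRer10, and the deposited values are raw counts. The labels name a reverse strand and the paper standard parameters, so strand use is unsettled, and counts of near-identical paralogs (10 members share 5 symbols), overlapping genes and antisense genes are uncertain. Counting error is the only error that depth limits. Symbols matched 26121 of 31952 genes (81.8%).

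After a filterByExpr filter and TMM scaling, all genes were tested with the quasi-likelihood test of edgeR 4.0.16 (R 4.3.3, limma 3.58.1), with Benjamini-Hochberg adjustment at 0.05. The standard errors (SE) were worked back from that test, as the absolute log2 fold change divided by the square root of its F statistic. With 2 libraries against 2 a two-sided permutation test cannot go below 0.333, so none was run. Alternatives were DESeq2 1.42.0, RLE factors, TMM without the skeletal muscle markers, no filter and at least 10 counts in every library. Further ones were edgeR's older dispersion fit, a replicate block and leaving out each library. The code was tested on simulated data.

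Members and lists (collagen synthesis, receptors, other matrix and cell type markers) were chosen with earlier results of these data known. Some matrix genes stand in the cartilage or fibroblast marker list too. Named members are the 3 of highest mean CPM in each class and the 6 of smallest unadjusted p in each direction. Other members were named after their values were seen. In other lists the 3 genes of smallest p in each direction, and any past the threshold, could be named.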

Additional observations from a re-analysis of the deposited data

How the results depend on the processing

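The main counts past the adjusted threshold were 0 higher and 0 lower collagens, 26 higher and 8 lower genes of all, and 0 lower synthesis genes. DESeq2 gave 4 lower collagens, 233 higher and 146 lower genes of all and 1 lower synthesis gene. The filter of at least 10 counts gave 1 lower collagen, 88 and 64 genes of all and 1 lower synthesis gene. The older dispersion fit gave 10 and 0 genes of all, and no filter gave 2 lower ones. An unadjusted p gave 2 higher and 24 lower collagens, 1037 and 1228 genes of all and 11 lower synthesis genes. Across 20099 genes, the difference of replicate 1 minus 2 in NRas+ correlated at 0.147 with that in control. The samples of a replicate number form 2 pairs and share only that number. The replicate block gave 7 and 0 genes of all and no collagen, with a collagen median of -0.88. With 1 library left out there were 0 to 1 higher and 0 to 2 lower collagens, 6 to 88 higher and 0 to 263 lower genes of all, 0 to 2 lower synthesis genes, and a collagen median of -1.15 to -0.58. The median of all genes was then 0.15 without control 2 and -0.18 without NRas+ 2. The cause of these shifts was not tested. Direction turned for 13 collagen genes with a library left out, over these ranges of log2 fold change: col5a3b -0.15 to 1.76, col19a1 (ENSDARG00000076163) -0.10 to 0.38, col23a1a -0.40 to 0.44, col6a4a -0.36 to 0.51, COL10A1 (ENSDARG00000054753) -2.29 to 1.96, COL10A1 (ENSDARG00000101535) -1.06 to 1.3, col28a1a -0.80 to 9.21, COL8A2 -1.10 to 2.05, col15a1b -1.20 to 0.04, col9a3 -1.65 to 0.30, col7a1 -0.71 to 2.04, col8a1a -1.06 to 0.42 and col18a1a -0.75 to 0.69. The values of col6a4a were 0.02 with DESeq2 and 0.01 with the replicate block, and that of COL8A2 was 0.06 with the block, each on the other side of 0. RLE factors and TMM without the 32 skeletal muscle markers turned no collagen and changed no collagen call. Without those markers the TMM factors were 0.861 and 0.941 in NRas+ and 0.877 and 1.41 in control. They were nearly the same as with the markers, so that setting could hardly move a collagen.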

Other observations

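Among the 8 tested smooth muscle markers edgeR called 2 lower, where 0.0398% of all genes were called lower. MYLK (ENSDARG00000004753), the kinase that activates smooth muscle myosin, had 20.9 and 34.2 CPM in NRas+, against 113 and 165 CPM in control. Its log2 fold change was -2.34 ± 0.41 (edgeR adjusted p = 0.0178). MYH11 (ENSDARG00000009782), the smooth muscle myosin heavy chain, had 116 and 182 CPM in NRas+ and 1078 and 554 CPM in control. Its log2 fold change was -2.45 ± 0.49 (edgeR adjusted p = 0.0450). Another gene with the symbol MYLK and another with the symbol MYH11 are in the list, and their levels are not given here. The 2 calls became 1 with RLE factors and 1 with no filter on low counts. With the older dispersion fit or the replicate block they became 0. With 1 library left out the edgeR adjusted p lay between 0.0165 and 0.813 for MYLK and between 0.00258 and 1.0 for MYH11, and only without control 2 did both stay under the threshold. Osteoblast markers summed to 43.9 and 68.5 CPM in NRas+ and to 52.5 and 92.9 CPM in control, with 5 of 8 below 0. Endothelial markers summed to 79.0 and 99.9 CPM in NRas+ and to 94.3 and 146 CPM in control, with 4 of 5 below 0. Of all genes 52.1% were below 0. Macrophage markers summed to 7.71 and 8.31 CPM in NRas+, against 17 and 5.42 CPM in control, melanocyte markers to 155 and 191 CPM, against 159 and 247 CPM in control, and neuron markers to 227 and 269 CPM, against 310 and 207 CPM in control. None of the genes in these 5 lists was called by edgeR or DESeq2 with all libraries. At an unadjusted p under 0.05 by edgeR, 2 of 8 tested osteoblast genes and 1 of 7 tested neuron genes were lower. No gene of the 5 lists was higher at that p. Of all genes 6.11% were lower and 5.16% higher.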
